A study of Rattus norvegicus with 11 samples.

Results

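Nrf2 and 9 genes of the antioxidant defense it governs were followed in the striatum of rats with intracerebral hemorrhage (ICH). The genes were selected by symbol alone, although earlier results of these data were known when the set was drawn up, and each symbol matched 1 of the 30560 genes listed. The 10 genes were Nfe2l2, which encodes the transcription factor Nrf2, and Keap1, which encodes the adaptor that holds it in check, with the enzyme genes Nqo1, Prdx1, Txnrd1, Srxn1, Gsr, Sod1, Sod2 and Cat. All 10 passed the filter on low counts and were tested among 15742 genes.

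Nrf2 is a basic leucine zipper factor that pairs with small Maf proteins and binds antioxidant response elements near its target genes. In unstressed cells Keap1 presents it to a Cul3 ubiquitin ligase and the protein is degraded, and when oxidants or electrophiles modify Keap1, Nrf2 escapes and accumulates. After ICH, lysing erythrocytes release hemoglobin, heme and iron, which generate oxidants. In brain the pathway is known to be most active in glia, astrocytes above all. Nrf2 is controlled to a large extent at the protein level, which RNA sequencing does not measure.

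RNA of the striatum was measured on day 3 in adult male Sprague-Dawley rats, with 1 library per rat. The 3 IC rats (common ICH) had received 0.2 U of bacterial collagenase VII-S in 1.0 µL saline in the right striatum, and the 3 IS rats (severe ICH) had received 0.6 U in 3.0 µL, so that dose and injected volume differed together. The 3 IS-HA rats were injected as the IS rats were. At 6 h they were anesthetized again and 150 µL of hematoma was aspirated through a catheter. No such procedure is described for the IS rats, so removal of blood, catheter and second anesthesia cannot be told apart. The 2 Normal rats had neither injection nor aspiration, so the groups differ from them by the needle, the enzyme and the hemorrhage at once, and these cannot be told apart. The model opens vessels with an enzyme that digests their basement membrane, and the tissue was a block of ipsilateral striatum in which lesion and surround were not separated.

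Counts assigned to genes ran from 6701301 to 18817645 per rat, highest in IC replicate 3 and lowest in IS-HA replicate 2. That rat stood apart from the others of its group, with Pearson correlations of log2 CPM (counts scaled to library size) of 0.971 and 0.973 with them, against 0.985 to 0.995 for all other pairs within a group. At the smallest depth a gene with 3 counts stands at 0.448 CPM, a limit that covers counting error only. By the quasi-likelihood test of edgeR, IC had 2040 genes called higher and 730 lower than Normal, IS had 3908 and 3802, and IS-HA had 3067 and 1898. Without TMM normalization, by library size alone, these splits became 2626 and 295, 4594 and 2851, and 3815 and 1104, and the median log2 fold change of all genes moved from 0.00 to 0.14, from 0.02 to 0.15 and from 0.06 to 0.18.

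The sequences upstream of the genes show where the letters of the response element lie. RefSeq promoter windows of 300 bases (build GRCr8, 250 bases before to 50 after the annotated start) were found for 9 of the 10 genes, with 2 starts for Txnrd1. They were searched on both strands for the core of the antioxidant response element, TGACNNNGC, and for TGANTCA, the AP-1 element, which can overlap it. The core was held by 12.1% and the AP-1 element by 7.33% of all 33469 windows of this length. Stretches of 4 windows are shown because they hold a match upstream of the start, with the match in capitals, and each is written on the strand of its gene.
Prdx1, core on the opposite strand, chr5:135383751-135383799: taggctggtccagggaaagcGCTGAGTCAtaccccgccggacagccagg
Txnrd1, the downstream start, core on the opposite strand, chr7:22755954-22756002: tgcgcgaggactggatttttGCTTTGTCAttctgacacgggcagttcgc
Sod2, core on the opposite strand, chr1:50050175-50050223: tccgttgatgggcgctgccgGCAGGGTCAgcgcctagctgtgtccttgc
Srxn1, AP-1 element, chr3:161064730-161064776: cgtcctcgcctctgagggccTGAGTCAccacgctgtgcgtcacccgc

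The Prdx1 match begins 135 bases before the start and overlaps a TGANTCA match, and a second TGANTCA match lies 248 bases before the start. Srxn1 held 2 matches to TGANTCA and none to the core in its window. The window of Nfe2l2 held 1 match to the core downstream of the start. The windows of Keap1, Nqo1, Sod1 and Cat held neither set of letters, which says nothing about elements outside them. A match of letters is a description and not a site of binding.

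In the injured striatum the regulator gene and part of the enzyme set were higher than in Normal, while the superoxide dismutase and catalase genes did not pass the test. Nfe2l2, Nqo1 and Prdx1 were higher in all 3 ICH groups, by 2.29- to 4.68-fold. Gsr and Txnrd1 were higher in IS, by 2.11- and 1.77-fold, and did not pass the test in IC or IS-HA. Keap1, Sod1, Sod2, Cat and Srxn1 did not pass the test in any comparison over all 11 rats. Of the 10 genes, 3 were called higher in IC, where 13.0% of all genes tested were. In IS 5 were, where 24.8% of all genes were, and in IS-HA 3 were, where 19.5% were. None of the 10 was called lower, where 4.64% of all genes were in IC, 24.2% in IS and 12.1% in IS-HA.

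**Figure D1:**
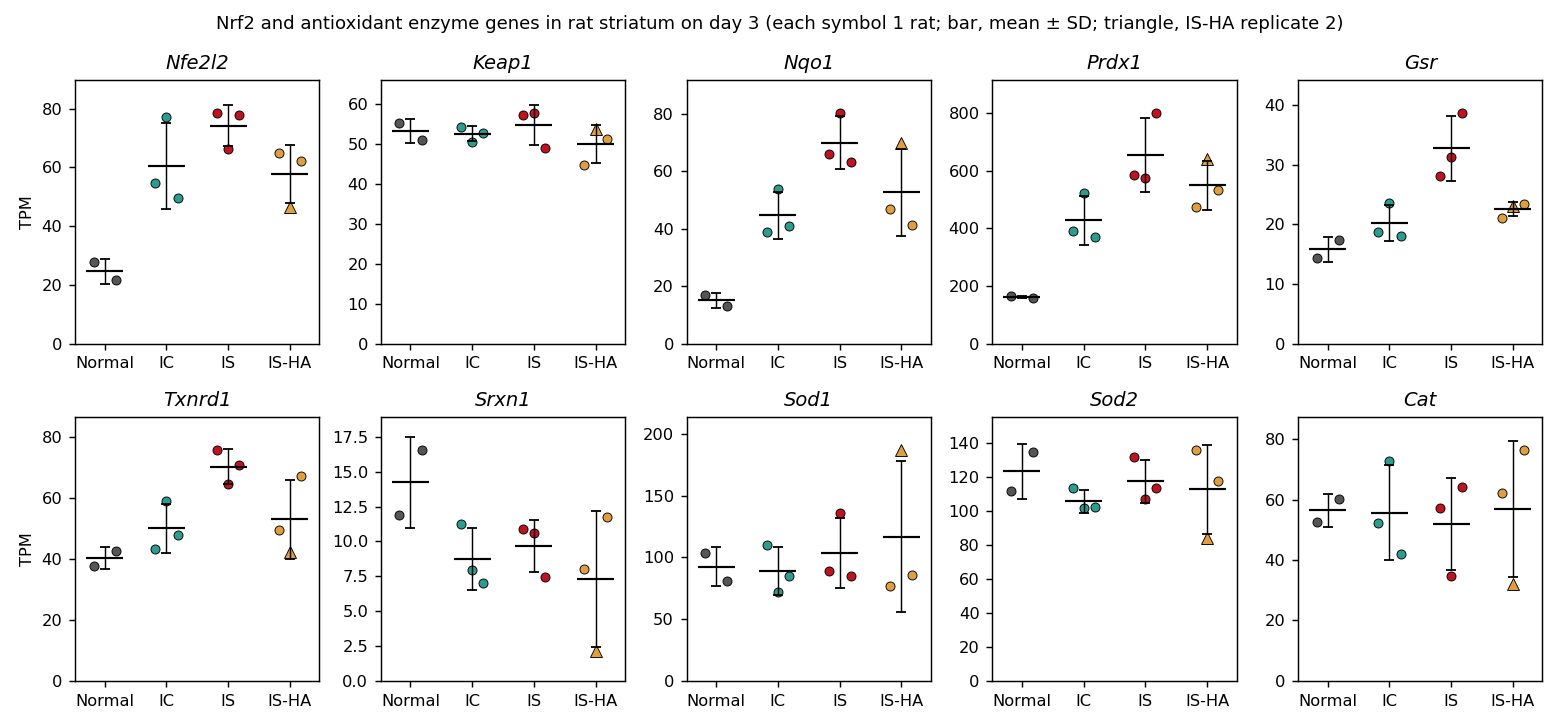
TPM (reads scaled to gene length and library size) of the 10 genes by group, with each symbol 1 rat, the horizontal line the mean and the bar the SD. All ICH rats lie above both Normal rats for Nfe2l2, Nqo1, Prdx1 and Gsr, a placement that was not counted over all genes. IS-HA replicate 2 (triangle) is the highest rat for Sod1 and the lowest for Srxn1 and Cat.

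Nfe2l2 (ENSRNOG00000001548) stood at 27.7 and 21.7 TPM, the authors' values scaled to gene length and library size, in the 2 Normal rats. It was at 54.8, 77.2 and 49.4 TPM in IC, at 78.6, 66.1 and 77.7 TPM in IS, and at 64.9, 46.6 and 62.1 TPM in IS-HA. Every ICH rat was above both Normal rats, a placement that was not counted over all genes. The ranges of the 3 ICH groups overlapped except that every IS-HA rat was below every IS rat. The fit gave 2.33-fold in IC (log2 fold change 1.22, SE 0.21, edgeR adjusted p = 0.00271), 3.02-fold in IS (1.59, SE 0.21, edgeR adjusted p = 0.000274) and 2.29-fold in IS-HA (1.19, SE 0.21, edgeR adjusted p = 0.00225). These changes of transcript level do not measure the amount or the nuclear share of the protein.

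Keap1 (ENSRNOG00000020878) was at 55.3 and 51.1 TPM in Normal, and at 54.3, 50.6 and 52.7 TPM in IC. In IS it was at 57.2, 57.8 and 48.9 TPM, and in IS-HA at 44.7, 53.7 and 51.3 TPM. All 4 groups overlapped, and the 11 rats spanned a range narrower than that of any other of the 10 genes relative to its level. The approximate 95% interval of the fold in IS against Normal ran from 0.766 to 1.40, so a small change in either direction is within the error. In Normal the mean level of Keap1 was above that of Nfe2l2 on the TPM scale, at 53.2 ± 3.00 against 24.7 ± 4.25 TPM (SD, n = 2), and in IS it was below it, at 54.6 ± 4.97 against 74.1 ± 6.95 TPM (SD, n = 3).

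Nqo1 (ENSRNOG00000012772) encodes a quinone reductase that passes electrons in pairs and so avoids reactive semiquinones, and it is a classical target of Nrf2. Its level was 16.9 and 13.2 TPM in Normal and 39.0, 54.0 and 41.1 TPM in IC. It reached 66.2, 80.4 and 63.4 TPM in IS and 46.9, 69.9 and 41.3 TPM in IS-HA. The IS rats were all above the IC rats, and IS-HA overlapped both. The fold against Normal was 2.83 in IC (log2 fold change 1.50, SE 0.34, edgeR adjusted p = 0.0116), 4.68 in IS (2.23, SE 0.35, edgeR adjusted p = 0.000646) and 3.56 in IS-HA (1.83, SE 0.34, edgeR adjusted p = 0.00309). In IS this was the highest fold among the 10 genes. Without IS-HA replicate 2, the highest of its group, the log2 fold change of IS-HA against Normal was 1.41 (edgeR adjusted p = 0.00139).

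Prdx1 (ENSRNOG00000017194) encodes a peroxiredoxin, which reduces peroxides through a reactive cysteine, and it was the most abundant of the 10 genes in every rat on the TPM scale. It stood at 165 and 159 TPM in Normal, at 390, 524 and 368 TPM in IC, at 585, 575 and 801 TPM in IS, and at 474, 641 and 531 TPM in IS-HA. All IS rats were above all IC rats, and IS-HA overlapped both groups. The fold against Normal was 2.52 in IC (log2 fold change 1.33, SE 0.29, edgeR adjusted p = 0.00930), 4.10 in IS (2.04, SE 0.30, edgeR adjusted p = 0.000441) and 3.43 in IS-HA (1.78, SE 0.29, edgeR adjusted p = 0.00156). A similar gene, Prdx1l1 (ENSRNOG00000017695), may share reads with it, which makes the exact level of Prdx1 uncertain. Prdx1l1 was at 27.4 ± 1.30 TPM in Normal (SD, n = 2) and 97.9 ± 10.4 TPM in IS (SD, n = 3). With the counts of both genes summed, a choice made after seeing the data, the log2 fold change in IS against Normal was 2.01 (edgeR adjusted p = 0.000328).

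Txnrd1 (ENSRNOG00000009088) encodes the cytosolic thioredoxin reductase, which uses NADPH to keep thioredoxin, and through it the peroxiredoxins, reduced. It was at 37.9 and 42.8 TPM in Normal and at 43.4, 59.0 and 47.9 TPM in IC. In IS it was at 75.8, 64.5 and 70.8 TPM, above every Normal and IC rat, and in IS-HA at 49.5, 42.2 and 67.3 TPM. IS-HA overlapped each of the other groups, with replicate 2 its lowest rat. The fold in IS against Normal was 1.77 (log2 fold change 0.82, SE 0.19, edgeR adjusted p = 0.00468). In IC the log2 fold change was 0.26 (SE 0.18, edgeR adjusted p = 0.339) and in IS-HA 0.37 (SE 0.18, edgeR adjusted p = 0.139), and neither passed the test.

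Srxn1 (ENSRNOG00000031167) encodes sulfiredoxin, which restores peroxiredoxins that peroxide has over-oxidized. It was the gene with the fewest reads, from 6 to 102 counts per rat. Its TPM was 11.9 and 16.5 in Normal, 11.2, 7.96 and 6.99 in IC, 10.9, 10.6 and 7.49 in IS, and 8.02, 2.14 and 11.8 in IS-HA. All ICH rats were below both Normal rats, but by a narrow margin. IS-HA replicate 3 stood at 11.78 TPM on 43 counts and Normal replicate 1 at 11.9 TPM on 75 counts. This placement was not counted over all genes. The differences did not pass the test, with log2 fold changes of -0.76 in IC (SE 0.43, edgeR adjusted p = 0.233), -0.53 in IS (SE 0.43, edgeR adjusted p = 0.323) and -0.998 in IS-HA (SE 0.44, edgeR adjusted p = 0.0998). The 2.14 TPM of IS-HA replicate 2 rests on 6 counts, and without that rat the log2 fold change of IS-HA against Normal was -0.66 (edgeR adjusted p = 0.144). Without IS-HA replicate 3, the highest of the group, it was -1.44 and passed the test (edgeR adjusted p = 0.0398).

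Gsr (ENSRNOG00000014915) encodes glutathione reductase, which regenerates reduced glutathione with NADPH. It stood at 14.3 and 17.3 TPM in Normal, at 18.8, 23.6 and 18.1 TPM in IC, at 28.2, 31.4 and 38.7 TPM in IS, and at 21.1, 23.0 and 23.3 TPM in IS-HA. The IS rats were above every other rat, and the IS-HA rats lay within the range of IC. The fold in IS against Normal was 2.11 (log2 fold change 1.08, SE 0.23, edgeR adjusted p = 0.00352). In IC it was 1.23 (0.30, SE 0.23, edgeR adjusted p = 0.380) and in IS-HA 1.43 (0.51, SE 0.23, edgeR adjusted p = 0.105), short of the threshold in both.

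The superoxide dismutase genes and the catalase gene showed no change that passed the test. Sod1 (ENSRNOG00000002115), the cytosolic copper and zinc superoxide dismutase, was at 104 and 81.3 TPM in Normal, 110, 72.1 and 85.0 in IC, 89.1, 136 and 85.0 in IS, and 77.1, 187 and 86.0 in IS-HA. Sod2 (ENSRNOG00000019048), the manganese enzyme of mitochondria, was at 112 and 135 TPM in Normal, 114, 102 and 102 in IC, 132, 107 and 114 in IS, and 136, 84.3 and 118 in IS-HA. Cat (ENSRNOG00000008364), the catalase of peroxisomes, was at 52.6 and 60.2 TPM in Normal, 52.1, 72.9 and 42.1 in IC, 57.2, 34.9 and 64.0 in IS, and 62.0, 32.2 and 76.4 in IS-HA. The groups overlapped in every pairing for all 3 genes. The approximate 95% interval of the fold in IS against Normal was 0.567 to 2.23 for Sod1, 0.752 to 1.24 for Sod2 and 0.587 to 1.49 for Cat. A change of the size seen for Nqo1 or Prdx1 in IS therefore lay outside all 3 intervals.

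Sod1 and Cat deviated in opposite directions within IS and IS-HA. IS-HA replicate 2 held the highest Sod1 and the lowest Cat of all 11 rats, and IS replicate 3 held the next highest Sod1 and the next lowest Cat. Without IS-HA replicate 2, the log2 fold change of Sod1 in IS-HA against Normal turned from 0.40 to -0.33 (edgeR adjusted p = 0.513 and 0.399), and that of Cat from -0.04 to 0.16 (edgeR adjusted p = 0.927 and 0.705).

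**Figure D2:**
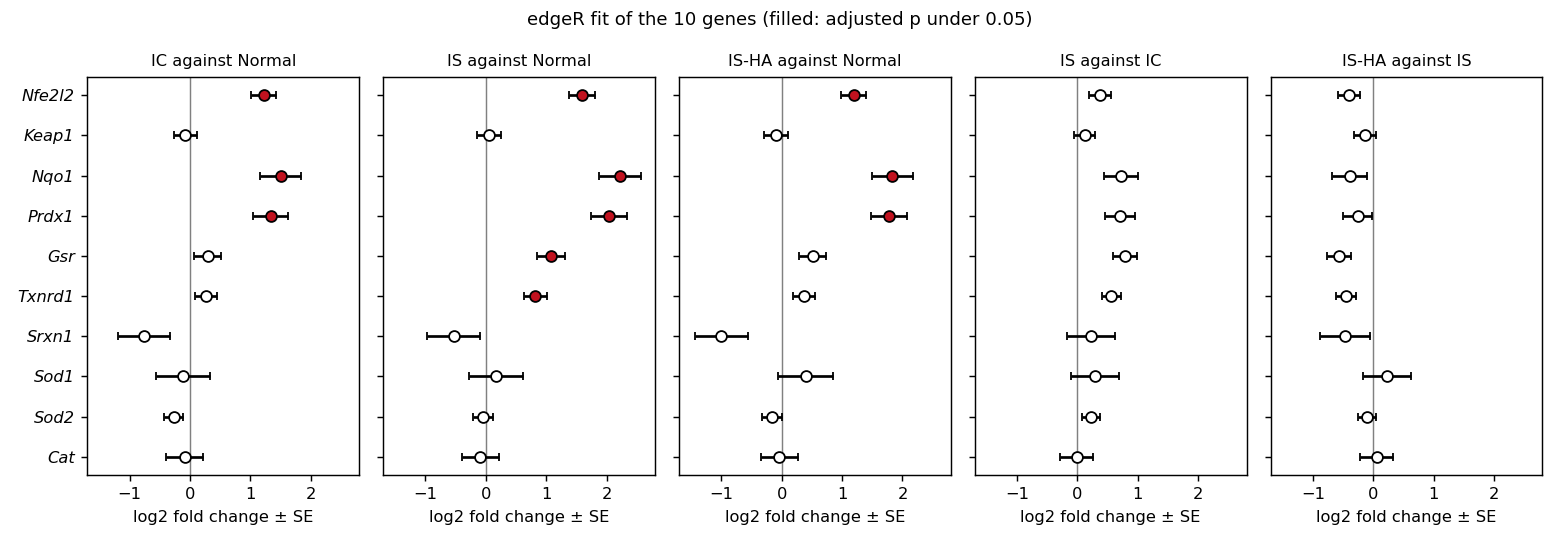
Log2 fold changes of the 10 genes with their standard errors from the edgeR fit over 11 rats, in 5 comparisons, with filled points at an adjusted p under 0.05. The 3 genes Nfe2l2, Nqo1 and Prdx1 are filled in each comparison with Normal, Gsr and Txnrd1 are filled only in IS against Normal, and no point is filled in IS against IC or IS-HA against IS.

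The comparison of IS with IC asked whether the larger hemorrhage changed these genes further. None of the 10 was called, and 0% of all genes tested were (0 in either direction by edgeR's quasi-likelihood test, against 1653 higher and 1845 lower at an unadjusted p under 0.05, and 470 higher and 507 lower by DESeq2). In TPM, 4 of the enzyme genes lay higher in every IS rat than in every IC rat, namely Nqo1, Prdx1, Txnrd1 and Gsr, where 15.4% of all genes did. The same 4 of 10 had an unadjusted p under 0.05, where 10.5% of all genes were higher at that level. Their folds, with approximate 95% intervals, were 1.65 (1.07 to 2.55) for Nqo1, 1.63 (1.12 to 2.37) for Prdx1, 1.48 (1.15 to 1.89) for Txnrd1 and 1.72 (1.27 to 2.34) for Gsr, with edgeR adjusted p from 0.147 to 0.188. Nfe2l2 itself differed by 1.30-fold (0.987 to 1.71, edgeR adjusted p = 0.239).

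The call for these 4 genes depended on the test and on 1 rat outside the comparison. DESeq2's Wald test called 2 of the 10 genes higher, Gsr (adjusted p = 0.0168) and Txnrd1 (adjusted p = 0.0276), where it called 2.99% of all genes. IS-HA replicate 2 is in neither group compared, but it enters the filter, the normalization and the estimate of the spread. In the fit without it, the log2 fold changes moved by less than their SE and all 4 were called, where 6.38% of all genes were called higher. The edgeR adjusted p was 0.0257 for Gsr, 0.0308 for Nqo1, 0.0385 for Prdx1 and 0.0390 for Txnrd1. Leaving out any of the other 10 rats gave no call among the 10 genes.

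The comparison of IS-HA with IS asked whether these genes were lower after the aspiration procedure as a whole. None of the 10 genes was called, and 0.00635% of all genes were, which is 1 gene by edgeR's quasi-likelihood test, against 879 higher and 529 lower at an unadjusted p under 0.05 and 49 higher and 22 lower by DESeq2. At an unadjusted p under 0.05, 3 of the 10 genes were lower in IS-HA, where 3.36% of all genes were. These were Gsr (0.674-fold, interval 0.496 to 0.917, edgeR adjusted p = 0.540), Txnrd1 (0.732-fold, interval 0.571 to 0.937, edgeR adjusted p = 0.540) and Nfe2l2 (0.758-fold, interval 0.576 to 0.998, edgeR adjusted p = 0.558). Every IS-HA rat was below every IS rat for 2 of the 10 genes, Gsr and Nfe2l2, where 6.37% of all genes were.

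Nqo1 was at 0.762-fold in IS-HA relative to IS (interval 0.494 to 1.17, edgeR adjusted p = 0.659) and Prdx1 at 0.835-fold (interval 0.575 to 1.21, edgeR adjusted p = 0.738). IS-HA replicate 2 was the highest of its group for both. Without it, Nqo1 was called lower, with a log2 fold change of -0.82 against -0.39 with it (edgeR adjusted p = 0.0486), the only call among the 10 genes where 0.975% of all genes were called lower. Prdx1 then stood at -0.54 (edgeR adjusted p = 0.121) and Gsr at -0.72 (edgeR adjusted p = 0.0569). The call for Nqo1 therefore depended on whether that rat was included.

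The comparisons share groups: all 3 against Normal use the same 2 Normal rats, and IS enters both of the last comparisons, so that a high IS group gives opposite signs in them. In IC against Normal the log2 fold changes over all rats were 1.22 for Nfe2l2, 1.50 for Nqo1 and 1.33 for Prdx1. Leaving out Normal replicate 3, they were 0.99, 1.28 and 1.24. Leaving out Normal replicate 1, they were 1.48, 1.76 and 1.43. The calls of these genes in IC did not all hold in either fit, and fewer of all genes were called there as well. In those fits the remaining Normal rat is assumed to vary as the other groups do.

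Gene length moved with the groups. In each rat, the deviation of log2 CPM from the mean of the gene was taken as a median over the shortest 25% of the genes tested and over the longest 25%, and the difference of the medians was compared. It was -0.43 and -0.76 in Normal, -0.22, -0.16 and 0.06 in IC, 0.20, 0.41 and 0.44 in IS, and -0.18, 0.90 and -0.18 in IS-HA. Prdx1, Srxn1, Nqo1 and Sod1 belong to the shortest class, with 6.25%, 4.78%, 19.6% and 22.8% of the genes tested shorter than each, and the other members lie in the middle of the range. With a correction for gene length, chosen after seeing the data, the log2 fold change of Prdx1 in IS against Normal was 1.44 (edgeR adjusted p = 0.000374) in place of 2.04, and that of Nqo1 was 1.89 (edgeR adjusted p = 0.000186) in place of 2.23. Gsr and Txnrd1, of middle length, were at 1.18 and 0.96 with it. Srxn1 went from -0.53 to -1.18 and did not pass the test (edgeR adjusted p = 0.102), and the same counts of 3, 5, 3, 0 and 0 genes were called in the 5 comparisons.

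**Figure D3:**
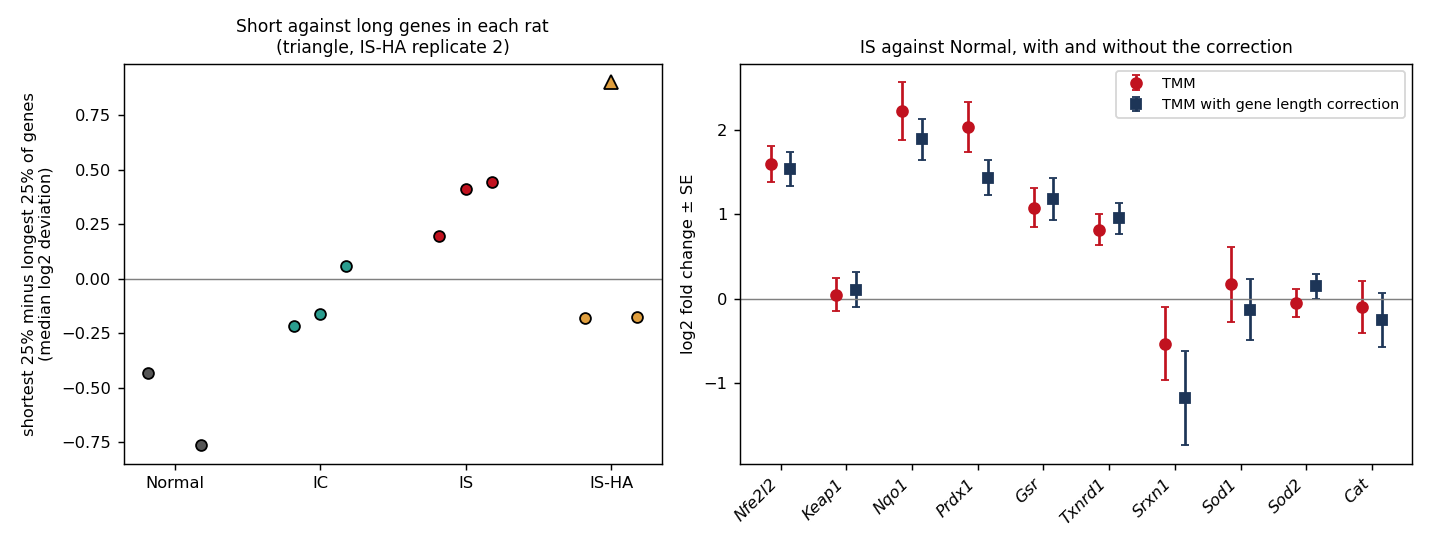
Left, the median log2 deviation of the shortest 25% of genes minus that of the longest 25% in each rat, and right, log2 fold changes with standard errors of the 10 genes in IS against Normal, with TMM alone and with the correction for gene length. IS-HA replicate 2 lies highest at 0.90 and both Normal rats lowest, and Prdx1 falls from 2.04 to 1.44 with the correction while Gsr goes from 1.08 to 1.18.

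The makeup of the tissue moved with the groups as well. The summed level of 10 genes of microglia and macrophages was 282 to 384 CPM in Normal, 1592 to 1919 in IC, 2220 to 2922 in IS and 1878 to 2505 in IS-HA, and 9, 8 and 9 of the 10 were called higher in IC, IS and IS-HA against Normal. For 8 genes of neutrophils, of which Ltf was at 0 in every rat and Camp and Mpo at 0 in Normal, the sum was 4.00 to 4.66 in Normal, 49.0 to 112 in IC, 174 to 227 in IS and 75.9 to 255 in IS-HA, and all 5 that could be tested were called higher in each group. The sum of 10 neuronal genes, striatal Drd1, Drd2 and Ppp1r1b among them, was 5767 to 6198 in Normal, 2346 to 4034 in IC, 1137 to 2633 in IS and 1763 to 3161 in IS-HA, and 3, 10 and 6 of the 10 were called lower. Of 6 oligodendrocyte genes, 0, 6 and 1 were called lower in IC, IS and IS-HA, and of 6 astrocyte genes 1 was higher and 1 lower in each group. The summed astrocyte level was nevertheless higher in every ICH rat than in Normal. It was 2601 to 2824 CPM in Normal, 8301 to 11870 in IC, 5223 to 8424 in IS and 6897 to 8689 in IS-HA. Gfap made up most of this sum, with 668849 counts over the 11 rats against 130638 for Aqp4, the next highest. For 5 endothelial genes the sum was 184 to 272 CPM in Normal and 312 to 330 in IC. It was 310 to 359 in IS and 276 to 404 in IS-HA, with 1 gene called higher in IS and 0, 1 and 1 lower in IC, IS and IS-HA. In whole tissue, fewer cells of a type and less RNA per cell cannot be told apart, and the part of these shifts in the levels of the 10 genes was not tested. None of the 3 erythroid genes tested and none of 5 cortical neuron genes was called in any comparison, although the summed cortical level ran from 16.9 to 544 CPM among the IS rats.

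Around the 10 genes, 53 other genes of the Nrf2 pathway were listed by role, of which 51 were present and tested. In IS against Normal 27 of the 51 were called higher and 4 lower, where 24.8% of all genes were higher and 24.2% lower. The median log2 fold change of the list was 0.87, against 0.02 over all genes tested. Counts and fold changes of the list are given without the correction for gene length. The shift between short and long genes is therefore not removed from them. By library size alone the split in IS was 31 higher and 2 lower, where 4594 and 2851 of 15742 genes were. With limma on log2(TPM + 0.1) it was 28 and 1, where 3976 and 2791 of 15742 genes were. Without Normal replicate 3, which leaves 1 Normal rat, fewer of the list and fewer of all genes were called in IS. In IC 10 were higher and 0 lower, where 13.0% and 4.64% of all genes were, with a median of 0.56 against 0.0033 over all genes. In IS-HA 25 were higher and 0 lower, where 19.5% and 12.1% of all genes were, with a median of 0.76 against 0.06. Without Normal replicate 1 or 3, which leaves 1 Normal rat, fewer of the list and fewer of all genes were called in IC and in IS-HA. Without IS-HA replicate 2 the list had 23 higher and 2 lower in IC, where 19.2% of all genes were called higher. In IS against IC and in IS-HA against IS none of the 51 was called, with medians of 0.42 and -0.21 against -0.0010 and 0.05 over all genes. Without IS-HA replicate 2, 16 were higher and 1 lower in IS against IC, where 6.38% of all genes were called higher, and 5 were lower and 0 higher in IS-HA against IS, where 0.975% of all genes were called lower.

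Among the heme and iron genes all 5 were called higher in IS. Hmox1, the heme oxygenase that degrades heme, went from a mean of 7.55 TPM in Normal to 2987 in IS (log2 fold change 8.65, SE 0.58, edgeR adjusted p = 3.13e-05). The ferritin genes Ftl1 and Fth1, which store iron, had log2 fold changes of 3.98 (SE 0.61, edgeR adjusted p = 0.000621) and 2.60 (SE 0.52, edgeR adjusted p = 0.00251). Hmox1 was far above Nqo1 in fold, although both are known targets of Nrf2. Its log2 fold change was 7.01 in IC and 7.31 in IS-HA, and -1.34 in IS-HA against IS (SE 0.35, edgeR adjusted p = 0.499).

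Among the genes listed under the supply of NADPH, which the enzymes of Txnrd1, Gsr and Nqo1 consume, all reported here were called higher in IS. The log2 fold changes were 1.76 for Taldo1 (SE 0.37, edgeR adjusted p = 0.00346), 1.67 for Tkt (SE 0.34, edgeR adjusted p = 0.00282), 1.47 for Idh1 and 0.68 for Me1. The enzymes of Taldo1 and Tkt do not form NADPH themselves. Of 9 thioredoxin and peroxiredoxin genes, 4 were called higher, among them Txn1, the substrate of Txnrd1, at 2.59 (SE 0.47, edgeR adjusted p = 0.00145), with Prdx5 at 2.34 and Prdx4 at 1.16. Of 7 genes for the removal of superoxide and peroxide, 5 were called higher, led by the glutathione peroxidase genes Gpx1 at 3.40, Gpx3 at 2.49 and Gpx7 at 1.40. These 3 peroxidase genes rose in the rats in which Cat, which acts on the same substrate, did not pass the test.

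**Figure D4:**
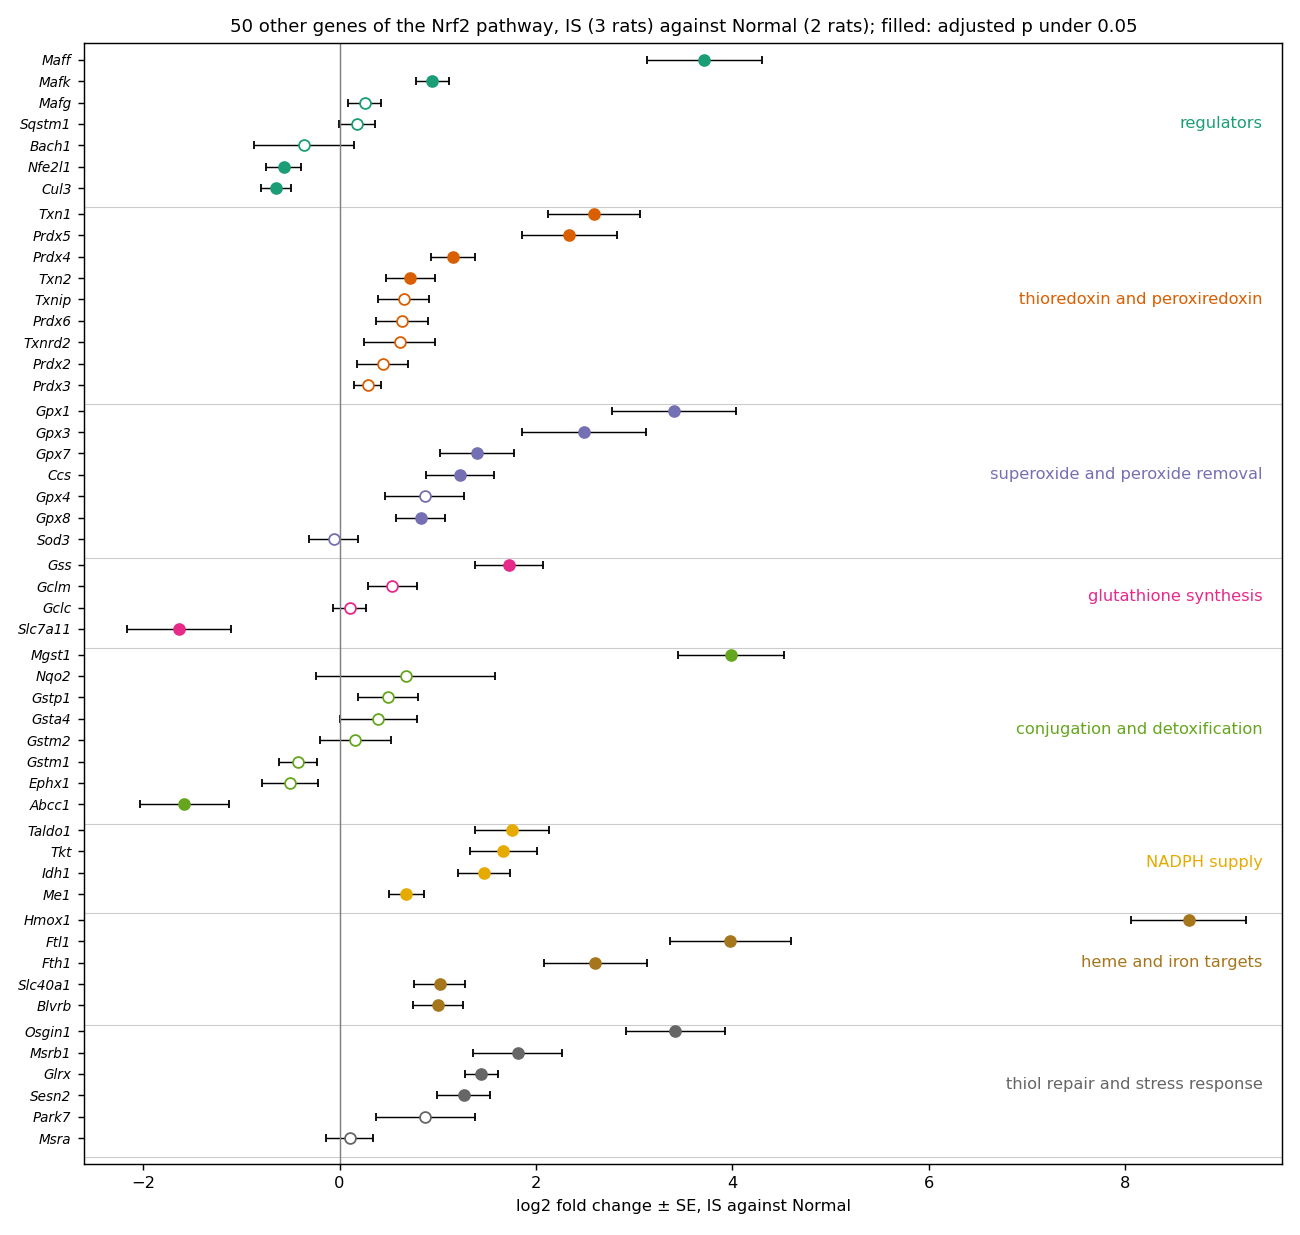
Log2 fold changes with standard errors of 50 other genes of the Nrf2 pathway in IS against Normal, grouped by role, with filled points at an edgeR adjusted p under 0.05. All 5 heme and iron genes and the genes drawn under NADPH supply are filled and to the right of 0, with Hmox1 farthest at 8.65. Slc7a11, Abcc1, Cul3 and Nfe2l1 are filled and to the left.

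The 4 lower calls in IS were Slc7a11, Abcc1, Cul3 and Nfe2l1, and none of them was left without Normal replicate 3. Of 4 glutathione synthesis genes, Gss was higher in IS (log2 fold change 1.72, SE 0.35, edgeR adjusted p = 0.00252), and Slc7a11, the cystine importer and a known Nrf2 target, was lower (-1.63, SE 0.53, edgeR adjusted p = 0.0259). Gclc and Gclm, the subunits of the rate-limiting ligase and also known targets, stood at 0.10 (SE 0.17, edgeR adjusted p = 0.639) and 0.54 (SE 0.25, edgeR adjusted p = 0.0993). Of 8 conjugation and detoxification genes, Mgst1 was higher (3.99, SE 0.54, edgeR adjusted p = 0.000298), the exporter gene Abcc1 was lower (-1.58, SE 0.45, edgeR adjusted p = 0.0146), and 6 did not pass the test. Of 6 genes of thiol repair and stress response, 4 were higher, with Osgin1 at 3.42, Msrb1 at 1.81 and Glrx at 1.44.

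Among the 7 other regulators, the small Maf partners Maff (log2 fold change 3.71, SE 0.59, edgeR adjusted p = 0.000704) and Mafk (0.95, SE 0.16, edgeR adjusted p = 0.00117) were higher in IS. Cul3, the ligase scaffold that works with Keap1, was lower (-0.65, SE 0.16, edgeR adjusted p = 0.00659), and so was Nfe2l1, the related factor Nrf1 (-0.57, SE 0.18, edgeR adjusted p = 0.0218). Bach1, the repressor that competes for the same elements, did not pass the test (-0.36, SE 0.51, edgeR adjusted p = 0.577), nor did Mafg and Sqstm1.

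Across the 11 rats, Pearson's r of log2 CPM among the 5 genes called in IS ran from 0.706, between Nqo1 and Txnrd1, to 0.958, between Nqo1 and Prdx1. It was 0.904 and 0.919 between Nfe2l2 and each of Nqo1 and Prdx1, 0.873 between Gsr and Txnrd1, and 0.737 and 0.764 between Nfe2l2 and each of Gsr and Txnrd1. Sod1 and Cat had r = -0.767, and Keap1 had r = -0.04 with Nfe2l2. The rats share the group differences, the depth and the shift with gene length, so these values are descriptions. Outside the 10 genes, the gene most like Nfe2l2 was Ggta1 (r = 0.989), that most like Nqo1 was Pdlim4 (0.991), that most like Prdx1 was Nfkbie (0.997), that most like Gsr was Gadd45b (0.975) and that most like Txnrd1 was Fbln5 (0.954). The nearest to Sod1 was Ndufa6 (0.971), to Keap1 Pkig (0.949), to Srxn1 Eif4enif1 (0.938), to Cat Spata1 (0.922) and to Sod2 Atp6v1b2 (0.906).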

How the data were processed

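Striatal poly(A) RNA of 11 rats was sequenced by the authors. The submitters' notes name fastp 0.20.0, HISAT2 2.1.0, SAMtools 1.9, featureCounts and DESeq2 and the build mRatBN7.2. The annotation version and strand setting are not given in the sources used here. Raw counts of reads on each gene, in whole numbers, were deposited by the authors beside TPM, in which counts are divided by gene length.

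Counts were filtered with filterByExpr, normalized by TMM and tested with edgeR 4.0.16 (R 4.3.3) by quasi-likelihood F tests in 1 fit over 4 groups, with Benjamini-Hochberg adjustment over 15742 genes at 0.05. The p-values measure the spread between rats. Standard errors are the absolute log2 fold change over the square root of F, and intervals use 11 degrees of freedom. Alternatives were DESeq2 1.42.0, limma 3.58.1 on log2 TPM, other normalizations and filters, each rat left out, and a replicate block. Corrections for gene length (derived from counts and TPM) and for Prdx1l1 were added after seeing the data.

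Of 53 pathway genes, Cbr1 and Pgd matched no row, and Mafk and Ftl1 matched 2, of which the row with more counts was used. Named were the 10 members, up to 3 genes per role with the largest called change in IS against Normal, and the gene most like each member. The values of 1 pathway gene are not reported here. Gclc, Gclm, Idh1, Me1, Nfe2l1, Bach1, Mafg, Sqstm1 and Prdx1l1 were named after their values were seen. Members and lists were chosen with earlier results of these data known.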

Additional observations from a re-analysis of the deposited data

How the results depend on the processing

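The log2 fold changes of the 10 genes kept their direction and side of the threshold in 1082 of 1130 combinations with an alternative. Of the 248 combinations with a called gene, 244 kept the call, none reversed, and the 4 lost were in IC without a Normal rat; in IS-HA against Normal, Gsr passed as higher in 1 alternative and Srxn1 as lower in 1. Leaving out each rat gave 0 to 3 of the 10 genes in IC against Normal, 0 to 4 in IS against IC and 0 to 1 in IS-HA against IS, and for the pathway list 2 to 25 genes in IC, 19 to 37 in IS, 7 to 27 in IS-HA, 0 to 17 in IS against IC and 0 to 5 in IS-HA against IS. Over all genes, with an IC, IS or IS-HA rat left out, 1305 to 3051 were higher and 129 to 2240 lower in IC. In IS 3181 to 4807 and 2807 to 4646 were, and in IS-HA 2684 to 3263 and 1518 to 2055. Without IS-HA replicate 2, 1015 of all genes were higher and 1226 lower in IS against IC, and 540 and 155 in IS-HA against IS. For the list in IC, library size alone gave 18, DESeq2's Wald test 16, limma on log2(TPM + 1) 16 and on log2(TPM + 0.1) 17. Over all genes these settings called 2626, 2452, 2109 and 2320 higher and 295, 1551, 236 and 149 lower. Only the 2 groups compared gave 25 in IC, where 2994 of all genes were higher and 2633 lower. That setting gave 13 in IS-HA, where 1672 and 750 were. DESeq2 called 2 of the 10 genes and 9 of the list in IS against IC, where 470 of all genes were higher and 507 lower. It called 1 of the list in IS-HA against IS, where 49 and 22 of all genes were. The cause of these shifts was not tested.

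Reversals were limited to values that were not called. With library size alone, log2 fold changes became 0.062 for Keap1, 0.019 for Sod1 and 0.062 for Cat in IC, 0.078 for Sod2 and 0.029 for Cat in IS, and 0.029 for Keap1 and 0.10 for Cat in IS-HA, each against Normal. Corrected for gene length, Sod1 in IS became -0.13, Sod2 in IS 0.15 and Srxn1 in IS against IC -0.090. For Cat in IS against IC, DESeq2's size factors gave 0.0076 and its Wald test 0.0085. Leaving out each rat, Keap1 ran from -0.19 to 0.053 in IC, -0.073 to 0.17 in IS and -0.29 to 0.041 in IS-HA. Sod1 ran from -0.34 to 0.14, -0.072 to 0.43 and -0.33 to 0.68, and from -0.50 to 0.51 in IS-HA against IS. Sod2 ran from -0.12 to 0.018 in IS. Cat ran from -0.28 to 0.030, -0.33 to 0.14 and -0.26 to 0.16 against Normal, -0.25 to 0.22 in IS against IC, and -0.20 to 0.29 in IS-HA against IS.

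Same-numbered rats had correlations of their deviations across genes from -0.364 to 0.338 (IS-HA and Normal), -0.34 to 0.356 (IS and IC) and -0.475 to -0.0894 (IS-HA and IS), so the numbers were not taken to pair rats. With the replicate block, 3 of the 10 genes and 26 of the list were called in IS-HA against Normal. Of the 15530 genes tested there, 3147 were called higher and 2762 lower. None of the 10 genes or of the list was called in IS against IC or in IS-HA against IS. Of all genes, none was called in the former, and 3 higher and 3 lower in the latter. Sod1 and Cat in IS-HA against Normal became -0.31 and 0.16, and Prdx1 in IS-HA against IS 0.090. The other 2 comparisons share fewer than 2 numbers, so no block could be fitted. The smallest library limits Srxn1 most, with 6 counts there.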
